A study of Mus musculus with 7 samples.

Results

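Glutamine depletion of mouse embryonic fibroblasts (MEFs) was examined as a single comparison, between the library of cells kept in glutamine-free medium for 10 h and the control library. Genes were kept where the mean over all 7 libraries of the series reached 2 TPM (transcripts per 1000000, a length-corrected share of a library). Symbols starting with Gm, Mir, Snor or mt-T and symbols holding -ps or -rs were left out, and so were 82 growth factors, which leaves 11465 of 26734 symbols. A gene was called raised or lowered when log2(TPM + 1) differed by more than 1 from the control library, that is by more than 2-fold on the scale of TPM + 1, a scale that understates the change of genes at low levels. The gene nearest to the expression limit on its inner side, Ccdc125, had a mean of 2.00 TPM and a log2 change of -0.89, and the nearest below it, Kcnab2, had a log2 change of -0.04.

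The study placed fibroblasts under limits of nutrients or oxygen and under other stresses, and asked how growth factor genes respond. All 7 libraries came from wild-type MEFs of E13.5 to E14.4 embryos at passages 3 to 7, grown in DMEM with 2 mM L-glutamine and 10% FBS, which the study's methods describe as sorted to be free of leukocytes and macrophages. After overnight culture cells were moved to glutamine-free or glucose-free DMEM for 10 h, held at 0.1% oxygen for 10 h (hypoxia), given 1 μM thapsigargin for 10 h (ER stress), 10 μM NaAsO2 for 3 h (oxidative stress) or 100 mM NaCl for 3 h (osmotic stress), or left as control. The sources used here do not say whether the control cells received fresh medium, or whether serum was present in the glutamine-free medium, so removal of glutamine and replacement of medium cannot be told apart against the control library. The glucose depletion library, also placed in new medium for 10 h, is therefore given beside many, but not all, of the values below. Each condition is 1 library, so no difference has a replicate check and no p-value is given.

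Glutamine is the main nitrogen donor of cultured cells. It feeds the synthesis of nucleotides, hexosamines and other amino acids, and enters the citric acid cycle as glutamate. Lack of an amino acid leaves its transfer RNA uncharged, which activates the kinase GCN2, and GCN2 favours translation of ATF4, the transcription factor that drives genes for amino acid import and synthesis. Growth factor and stress kinases, ERK among them, act on another set of rapid targets, the immediate early transcription factors and the phosphatases and adaptors that restrain ERK. Sterol and fatty acid synthesis is set by the SREBP factors, which INSIG proteins hold back when sterols are plentiful.

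Promoter sequences are given first for 5 genes to which the results return, because each holds a short sequence that the literature ties to one of these pathways. They were taken from the RefSeq promoter table on GRCm38.p6, cover the 250 bases before the transcription start, read 5′ to 3′ on the gene's strand, and were found for 8852 of the 11465 genes. In Atf3 (chr1:191183334-191183583, minus strand), Chac1 (chr2:119350992-119351241, plus strand) and Asns (chr6:7693210-7693459, minus strand) the capitals mark the ATF4 composite element, searched as TGATGNAAN on both strands. In Egr2 (chr10:67537316-67537565, plus strand, 1 of 5 start sites listed) they mark a CArG box, the site of serum response factor, and in Hmgcs1 (chr13:119690101-119690350, plus strand) a sterol element, searched as TCACNCCAC.
Atf3: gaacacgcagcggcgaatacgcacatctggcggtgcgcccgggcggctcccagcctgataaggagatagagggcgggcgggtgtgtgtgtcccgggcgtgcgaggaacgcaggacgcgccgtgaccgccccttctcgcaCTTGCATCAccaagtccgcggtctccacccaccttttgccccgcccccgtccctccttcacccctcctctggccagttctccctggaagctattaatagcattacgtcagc
Chac1: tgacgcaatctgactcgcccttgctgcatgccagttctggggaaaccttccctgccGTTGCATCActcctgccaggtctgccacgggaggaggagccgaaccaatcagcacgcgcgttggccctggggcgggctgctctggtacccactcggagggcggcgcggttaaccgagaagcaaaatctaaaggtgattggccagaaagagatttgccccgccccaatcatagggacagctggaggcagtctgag
Asns: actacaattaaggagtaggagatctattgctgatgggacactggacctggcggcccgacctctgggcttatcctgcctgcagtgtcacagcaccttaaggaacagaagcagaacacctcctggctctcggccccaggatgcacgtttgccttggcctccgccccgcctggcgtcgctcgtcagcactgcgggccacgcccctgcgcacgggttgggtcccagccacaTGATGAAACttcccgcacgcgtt
Egr2: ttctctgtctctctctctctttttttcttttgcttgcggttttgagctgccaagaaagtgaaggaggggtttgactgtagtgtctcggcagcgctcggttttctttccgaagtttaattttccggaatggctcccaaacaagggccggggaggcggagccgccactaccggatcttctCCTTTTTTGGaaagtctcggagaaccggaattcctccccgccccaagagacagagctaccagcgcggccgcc
Hmgcs1: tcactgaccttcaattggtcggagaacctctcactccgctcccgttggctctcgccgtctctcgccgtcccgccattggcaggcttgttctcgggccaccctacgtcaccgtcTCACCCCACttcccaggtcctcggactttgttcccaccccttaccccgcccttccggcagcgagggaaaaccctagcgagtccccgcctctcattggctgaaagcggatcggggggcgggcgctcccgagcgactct

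Among the 11465 genes, 216 were raised (1.88% of genes tested) and 215 were lowered (1.88%). These shares are the background for the counts of list members below. Of the raised genes 11 reached the expression limit only through the glutamine depletion library, and of the lowered genes 9 only through the control library. With the limit set on the 6 other libraries, 205 were raised and 222 lowered of 11503. The median log2 change over all 11465 genes was -0.10, and centring on it gave a split of 271 raised and 132 lowered. Of the 216 raised genes 134 stood above all 6 other libraries, and of the 215 lowered genes 109 stood below all 6. Over all genes tested, 9.06% were highest and 9.98% lowest in this library. Raised and lowered genes were picked by their glutamine depletion and control values, so a higher share among them follows in part from that choice. Direct comparison with the glucose depletion library gave 169 genes higher by more than 2-fold in glutamine depletion (1.47%) and 131 lower (1.14%). Glucose depletion itself raised 63 genes (0.549%) and lowered 77 (0.672%) against the same control library.

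**Figure D1:**
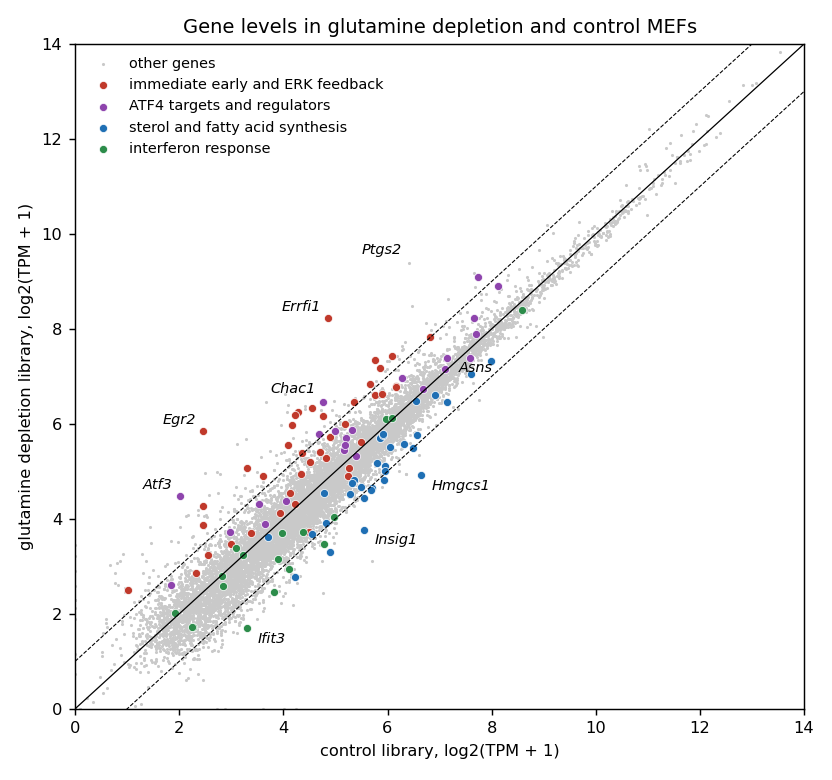
Level of each of the 11465 genes in the control library (horizontal axis) and in the glutamine depletion library (vertical axis), both as log2(TPM + 1), with dashed lines at a 2-fold difference in TPM + 1 and 4 gene lists in colour. Egr2, Errfi1 and Ptgs2 lie well above the upper line, Asns lies close to the line of equality, and Insig1, Hmgcs1 and Ifit3 lie under the lower line.

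Called genes were more frequent at low levels and the direction shifted with level. Between 2 and 5 TPM, 46 genes were raised and 66 lowered of 1502, and between 5 and 10 TPM 27 were raised and 63 lowered of 1683. At 200 TPM and over, 9 genes were raised and 1 lowered of 701. The SD of the log2 change across genes went from 0.57 in the lowest class to 0.30 in the highest, and read counts behind these values are unknown. Among the 382 genes not annotated as protein-coding 12.6% were called, against 3.46% of the 11083 protein-coding genes.

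**Figure D2:**
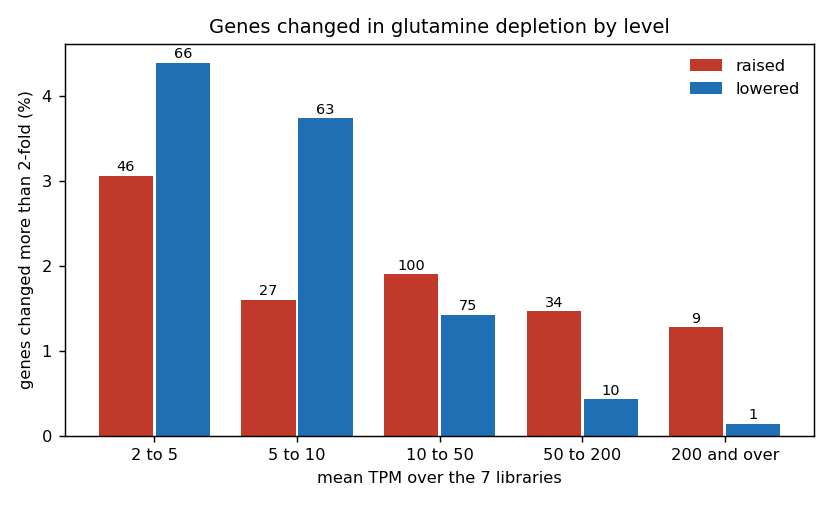
Share of genes raised (red) and lowered (blue) by more than 2-fold in glutamine depletion, by mean TPM over the 7 libraries, with the number of genes above each bar. Lowered genes outnumber raised genes below 10 TPM, 66 to 46 and 63 to 27, and raised genes outnumber lowered genes from 10 TPM upward.

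The libraries carried fibroblast markers throughout. The summed level of 14 fibroblast markers was 17997 TPM in the control and 17946 TPM in glutamine depletion, and none of the 14 was called. Of 12 macrophage and leukocyte markers, 7 were under 1 TPM in every library, and their summed level was 13.3 TPM in the control and 12.9 TPM in glutamine depletion, within the 8.45 to 17.8 TPM of the other 5. The endothelial gene Cldn5, the muscle gene Myf5 and the neuronal gene Snap25 were listed at 0 in all 7 libraries. Other members of these lists were present. In the control library the endothelial Egfl7 was at 10.9 TPM, and the neuronal Tubb3 and Map2 were at 26.0 and 19.9 TPM. The 9 epithelial markers summed to 48.1 TPM in the control and 56.3 TPM in glutamine depletion, mostly through Krt19 (41.6 and 47.4 TPM). The summed muscle markers went from 37.6 to 25.8 TPM, mostly through Des, and cartilage and fat markers from 131 to 103 TPM. The part of these markers in the results was not tested, and fewer cells of a type cannot be told apart from less RNA per cell. Mitochondrially encoded transcripts took 6.37% of the control library and 7.58% of the glutamine depletion library (range over all libraries 5.09% to 9.25%).

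Immediate early transcription factors were frequent among the raised genes. Of the 22 that were kept, 11 rose and 0 fell, and the median log2 change was 0.93. Of these 22, 10 stood above all 6 other libraries, against 9.06% of all genes tested. Egr2, a zinc-finger factor of the early growth response family, was at 4.50 TPM in the control library, 56.9 TPM in glutamine depletion, 12.4 TPM in glucose depletion, 5.48 TPM in hypoxia, 5.01 TPM in ER stress, 32.2 TPM in oxidative stress and 8.06 TPM in osmotic stress. It rose by a log2 change of 3.40, and oxidative stress was the next highest library. Egr1, of the same family, was at 52.9 TPM in the control library, 161 TPM in glutamine depletion, 63.7 TPM in glucose depletion, 54.8 TPM in hypoxia, 87.7 TPM in ER stress, 121 TPM in oxidative stress and 63.4 TPM in osmotic stress. Its log2 change was 1.58, and all the other libraries lay below the glutamine depletion library. Egr3 rose from 4.48 to 18.2 TPM (1.81) and the nuclear receptor Nr4a1 rose from 22.3 to 79.9 TPM (1.79).

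Of the subunits of the AP-1 dimer Fosb, Junb and Fosl1 rose. Fosb went from 1.03 to 4.63 TPM (log2 change 1.47), Junb from 67.1 to 171 TPM (1.34) and Fosl1, the Fra-1 subunit, from 49.4 to 113 TPM (1.18). Fos itself went from 9.36 to 11.9 TPM, a log2 change of 0.32, Jun had a log2 change of 0.61, Fosl2 one of 0.64, and Jund, a further subunit, had one of -0.34. Myc, the growth-promoting factor, rose from 56.8 to 144 TPM (log2 change 1.33), Ier2 from 26.2 to 70.6 TPM (1.40), Ier5 from 39.8 to 86.5 TPM (1.10) and the Krüppel-like factor Klf6 from 112 to 227 TPM (1.01). Srf, which encodes serum response factor, had a log2 change of 0.81 and was highest in the glutamine depletion library. The CArG box was found before Egr2 and Srf among the 16 members with a promoter window, against 1.45% of all genes kept, and AP-1 sites (TGANTCA) were found before none of the 16.

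Genes of the ERK pathway feedback list rose as well. Besides restraints of ERK and receptor tyrosine kinases, the list holds phosphatases of other kinases, such as Dusp10, and the factors Etv4 and Etv5. Of 19 kept, 9 rose and 0 fell, with a median log2 change of 0.61. Errfi1 (chr4:150853919-150868892), which encodes the EGF receptor inhibitor MIG6, was at 28.1 TPM in the control library, 298 TPM in glutamine depletion, 48.2 TPM in glucose depletion, 28.4 TPM in hypoxia, 39.0 TPM in ER stress, 113 TPM in oxidative stress and 53.4 TPM in osmotic stress. Its log2 change was 3.36, and the glutamine depletion library stood far above the other 6. Dusp5, a nuclear phosphatase of ERK, was at 17.0 TPM in the control library, 61.8 TPM in glutamine depletion, 24.3 TPM in glucose depletion, 9.30 TPM in hypoxia, 18.2 TPM in ER stress, 58.7 TPM in oxidative stress and 15.6 TPM in osmotic stress. It rose by a log2 change of 1.80, to about the level in oxidative stress, and the remaining libraries lay between 9.30 and 24.3 TPM.

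Further members of this group rose by less than Errfi1. Spred2, an inhibitor of RAF activation, rose from 18.5 to 74.9 TPM (log2 change 1.96), Phlda1 from 17.6 to 71.9 TPM (1.97), Dusp10, a phosphatase of p38 and JNK, from 8.80 to 32.7 TPM (1.78), Dusp6, the cytoplasmic ERK phosphatase, from 16.1 to 46.3 TPM (1.47) and Dusp4 from 11.2 to 28.8 TPM (1.29). The Sprouty inhibitors did not move together, since Spry4 and Spry2 rose by 1.40 and 1.02 while Spry1 had a log2 change of -0.76. Dusp1, a phosphatase of stress kinases, had a log2 change of 0.13. The cyclic AMP response element TGACGTCA was found before Errfi1, Dusp1 and Dusp8, in 3 of 15 promoter windows of the group, against 3.23% of all genes kept.

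The immediate early and ERK feedback lists had medians of 0.90 and 1.07 in oxidative stress at 3 h, and of 0.03 and 0.14 in glucose depletion at 10 h. Taken directly between the depletion libraries, the median glutamine minus glucose difference was 0.90 for the immediate early list and 0.53 for the ERK list. Of the immediate early list 2 genes rose in glucose depletion, Egr2 (1.29) and Egr3 (1.09), and of the ERK list none. All these conditions share the control library.

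**Figure D3:**
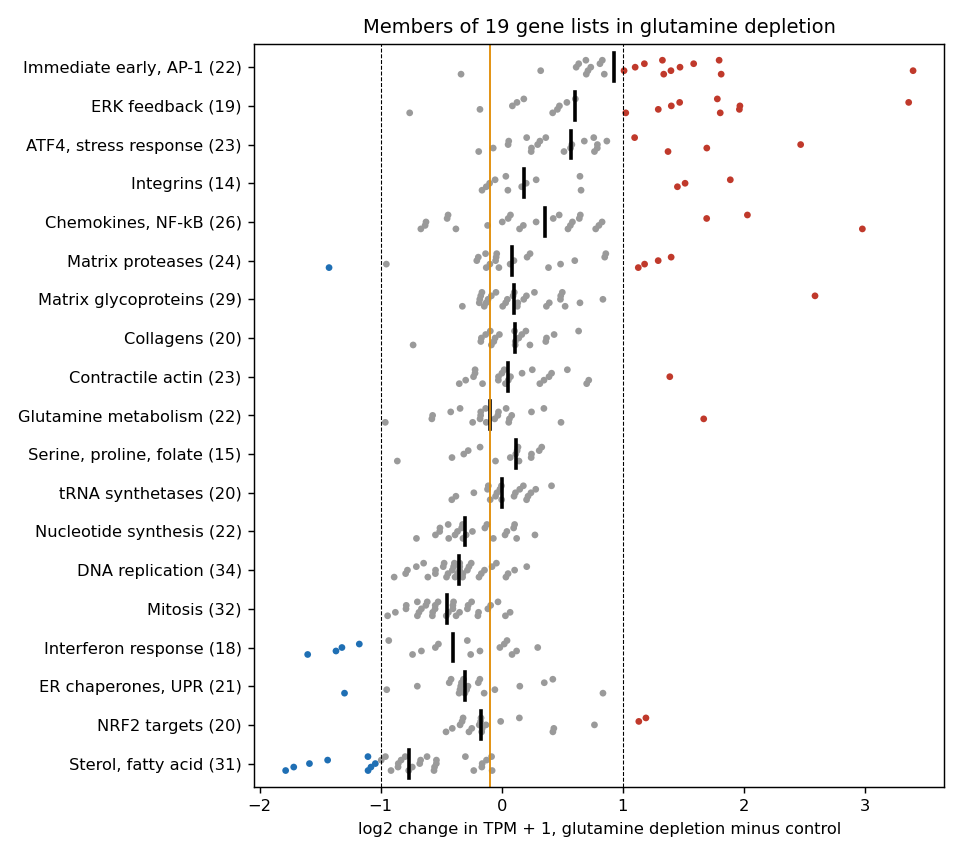
Log2 change in TPM + 1 of each member of 19 gene lists (number kept in brackets), glutamine depletion minus control, with red and blue for members past 2-fold, black bars for list medians and an orange line for the median of all 11465 genes (-0.10). The immediate early and ERK feedback lists reach furthest to the right, and every member of the sterol and fatty acid list lies to the left of 0.

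Genes of inflammation, adhesion and matrix remodelling gave several of the largest rises at high levels. Ptgs2 (chr1:150100031-150108227), the inducible cyclooxygenase of prostaglandin synthesis, was at 83.8 TPM in the control library, 667 TPM in glutamine depletion, 118 TPM in glucose depletion, 105 TPM in hypoxia, 159 TPM in ER stress, 489 TPM in oxidative stress and 420 TPM in osmotic stress. Its log2 change of 2.98 was the fifth largest of all genes tested, and oxidative and osmotic stress came next in level. Of 26 chemokine, prostaglandin and NF-κB feedback genes 3 rose and 0 fell (median 0.35), the others being Ccl20, a chemokine for CCR6 cells, from 1.75 to 10.2 TPM (2.03), and Tnfaip3, the NF-κB inhibitor A20, from 2.57 to 10.5 TPM (1.69). Nfkbia, a further NF-κB feedback gene, had a log2 change of 0.07, the chemokine Ccl2 one of 0.00 and Cxcl5 one of -0.67. Ccl20 also rose in glucose depletion (1.34), and its direct glutamine minus glucose difference was 0.69.

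Has2, which makes the matrix polysaccharide hyaluronan, was at 15.4 TPM in the control library, 97.5 TPM in glutamine depletion, 29.1 TPM in glucose depletion, 15.6 TPM in hypoxia, 3.57 TPM in ER stress, 21.8 TPM in oxidative stress and 10.5 TPM in osmotic stress. It rose by a log2 change of 2.59, and glucose depletion was the next highest library. It was the only one of 29 matrix glycoprotein genes called. Its receptor Cd44 had a log2 change of 0.65, tenascin Tnc one of 0.84 and fibronectin Fn1 one of 0.50, each highest in the glutamine depletion library. None of 20 collagen genes was called (median 0.11), with Col1a1 at -0.09 and Col6a3 at 0.63.

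Integrins and the plasminogen system rose in part. Itga5, the fibronectin receptor subunit α5, was at 201 TPM in the control library, 575 TPM in glutamine depletion, 281 TPM in glucose depletion, 158 TPM in hypoxia, 88.2 TPM in ER stress, 476 TPM in oxidative stress and 179 TPM in osmotic stress. It rose by a log2 change of 1.51, and oxidative stress was the next highest library. Itgb3 rose from 14.4 to 41.1 TPM (1.45) and Itga2, a collagen receptor subunit, from 0.702 to 5.30 TPM (1.89), so that 3 of 14 integrin subunits rose and 0 fell. In glucose depletion Itga2 also rose (1.24), and Itgb3 had a log2 change of 0.95. The urokinase receptor Plaur was at 106 TPM in the control library, 280 TPM in glutamine depletion, 136 TPM in glucose depletion, 48.1 TPM in hypoxia, 79.7 TPM in ER stress, 233 TPM in oxidative stress and 140 TPM in osmotic stress. Its log2 change was 1.40, and its ligand Plau rose from 64.3 to 159 TPM (1.29).

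Timp3, a metalloproteinase inhibitor bound to matrix, rose from 531 to 1161 TPM (log2 change 1.13). Of 24 proteases and inhibitors 4 rose, Plaur, Plau and Timp3 among them, and 1 fell, the aggrecan-cleaving protease Adamts1 from 81.3 to 29.6 TPM (-1.43). Adamts1 also fell in glucose depletion (-1.07). Contractile actin genes were nearly all within 2-fold, with 1 of 23 raised, the filamin Flnc from 80.3 to 212 TPM (1.39), and vinculin Vcl at 0.72. YAP targets other than growth factors had 1 of 19 raised, Nuak2 from 18.3 to 38.1 TPM (1.02), with a median of 0.25. Among 19 TGF-β and BMP response genes 2 rose, Skil from 20.7 to 49.4 TPM (1.22) among them, and the BMP-responsive genes Id1, Id2, Id3 and Smad6 had log2 changes of -0.27, -0.71, -0.49 and -0.87.

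**Figure D4:**
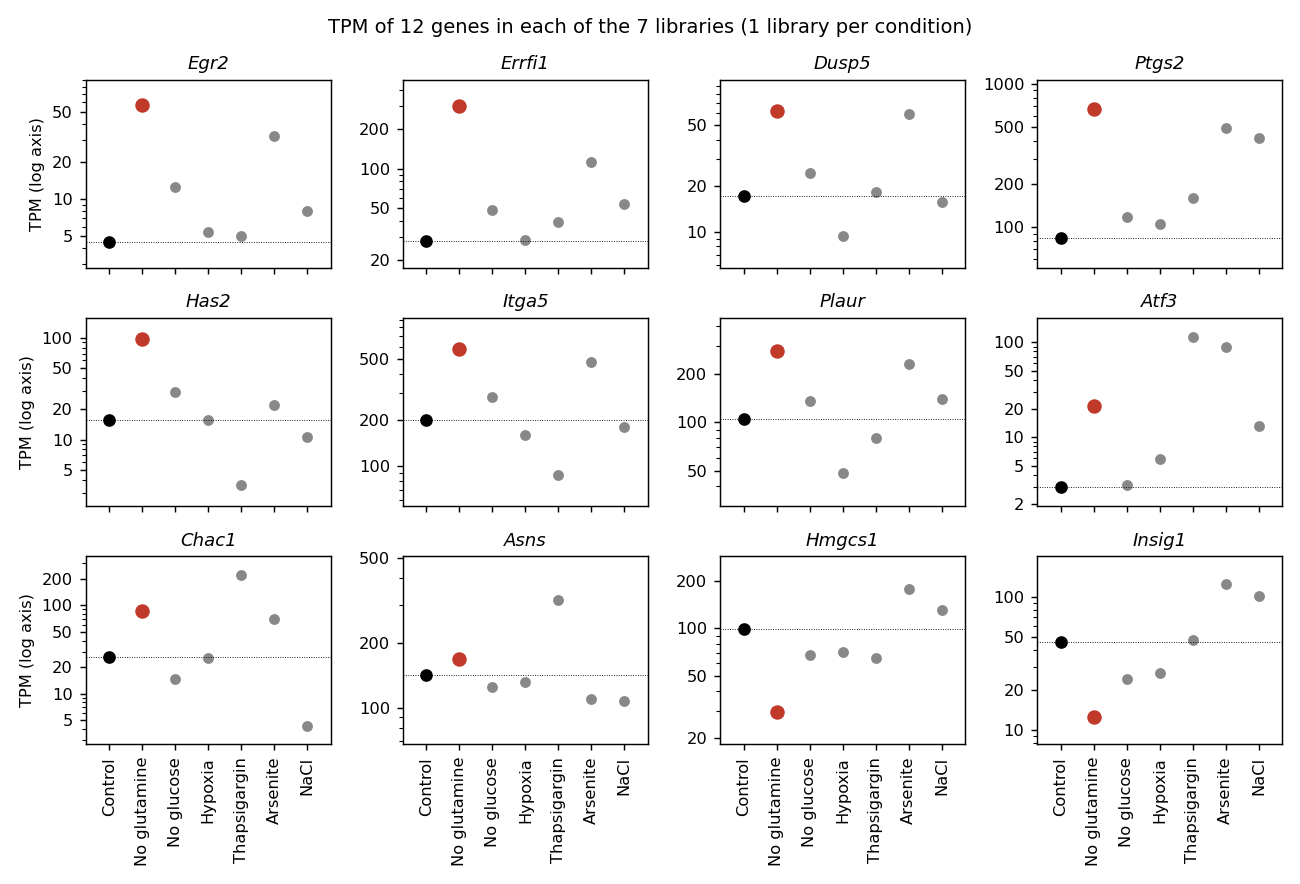
TPM of 12 genes on log axes in each of the 7 libraries, with the control in black and dotted, glutamine depletion in red and the other conditions in grey. Egr2, Errfi1 and Has2 stand highest without glutamine, Atf3, Chac1 and Asns stand highest with thapsigargin, and Hmgcs1 and Insig1 stand lowest without glutamine.

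The ATF4 programme of amino acid shortage rose in a few members. Of 23 genes 4 rose and 0 fell, and 21 had a log2 change above 0, as did 38.4% of all genes, with a median of 0.57 against -0.10 for all genes. Atf3 (chr1:191170296-191218039), a stress-induced repressor of the ATF family, was at 3.02 TPM in the control library, 21.3 TPM in glutamine depletion, 3.14 TPM in glucose depletion, 5.95 TPM in hypoxia, 112 TPM in ER stress, 88.3 TPM in oxidative stress and 13.2 TPM in osmotic stress. It rose by a log2 change of 2.47, and stood below ER stress and oxidative stress but above osmotic stress and the rest. Chac1 (chr2:119351229-119354381), which degrades glutathione, was at 26.2 TPM in the control library, 86.8 TPM in glutamine depletion, 14.8 TPM in glucose depletion, 25.3 TPM in hypoxia, 224 TPM in ER stress, 69.7 TPM in oxidative stress and 4.28 TPM in osmotic stress. Its log2 change was 1.69, its level in ER stress was higher still, and glucose depletion lay below the control (-0.78).

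Nupr1, a small nuclear stress protein, rose from 211 to 549 TPM (log2 change 1.37) and Slc7a1, the importer of cationic amino acids, from 24.8 to 54.2 TPM (1.10). Trib3, the pseudokinase that feeds back on this pathway, went from 30.8 to 57.0 TPM, a log2 change of 0.87, and Atf4 mRNA itself had one of 0.79. Asns, which makes asparagine from aspartate with glutamine as its nitrogen donor, was at 141 TPM in the control library, 168 TPM in glutamine depletion, 125 TPM in glucose depletion, 132 TPM in hypoxia, 317 TPM in ER stress, 109 TPM in oxidative stress and 108 TPM in osmotic stress. Its log2 change was 0.25, and the libraries other than ER stress spanned 108 to 168 TPM. Ddit3, which encodes the factor CHOP, went from 136 to 141 TPM (0.05) and stood at 1870 TPM in ER stress.

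The importers Slc7a11, Slc7a3, Slc7a5 and Slc3a2 had log2 changes of 0.77, 0.76, 0.68 and 0.58, and the glutamine importer Slc38a2 one of 0.06. The median of the list was -0.09 in glucose depletion, 0.32 in hypoxia, 0.32 in oxidative stress, 0.14 in osmotic stress and 1.74 in ER stress, where 17 of 23 rose against 7.28% of all genes tested. The ATF4 composite element shown in capitals above was found before 6 of the 19 members with a promoter window (31.6%), against 2.25% of all genes kept and 3.89% of all promoters in the table. Its holders were Atf3, Chac1, Asns, Nupr1, Vldlr and Slc7a11, whose log2 changes ranged from 0.25 to 2.47, so genes with the element differed widely from each other. The list was drawn up from ATF4 targets, so its share with the element follows in part from that choice and is not a result of these data.

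Enzymes near glutamine itself changed little. Of 22 genes of glutamine and glutamate handling 1 rose and 0 fell, with a median of -0.09 (0.00 after centring on all genes). The raised gene was Gfpt2, which uses glutamine to start hexosamine synthesis, from 8.51 to 29.2 TPM (log2 change 1.67), while Gfpt1 had a log2 change of -0.03. Glutamine synthetase Glul went from 20.3 to 18.5 TPM (-0.13) and the importer Slc1a5 from 54.0 to 56.5 TPM (0.06). Nadsyn1, a glutamine-dependent NAD synthetase, had the lowest value of the list, -0.96.

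None of 15 serine, proline and folate-cycle enzymes was called (median 0.12), nor of 20 cytosolic tRNA synthetases (median -0.00, or 0.09 after centring on all genes). In ER stress the same lists had medians of 1.08 and 0.84. Among the folate enzymes the mitochondrial Mthfd2 had a log2 change of 0.33 and the cytosolic Mthfd1 one of -0.86. None of 22 purine and pyrimidine synthesis enzymes was called, with a median of -0.31, and Cad, the glutamine-using first enzyme of pyrimidine synthesis, went from 45.3 to 30.7 TPM (-0.55).

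Genes of sterol and fatty acid synthesis lay below the control throughout. Of 31 genes 8 fell and 0 rose, and all 31 had log2 changes below 0, against 61.5% of all genes tested. The median was -0.77, and 13 stood below all 6 other libraries, against 9.98% of all genes. Hmgcs1 (chr13:119690379-119708260), which makes the HMG-CoA from which cholesterol is built, was at 98.5 TPM in the control library, 29.2 TPM in glutamine depletion, 67.6 TPM in glucose depletion, 70.6 TPM in hypoxia, 64.7 TPM in ER stress, 179 TPM in oxidative stress and 131 TPM in osmotic stress. It fell by 1.72 on the log2 scale, and the other libraries started at 64.7 TPM. Insig1, the SREBP restraint that is itself an SREBP target, was at 45.8 TPM in the control library, 12.6 TPM in glutamine depletion, 24.2 TPM in glucose depletion, 26.8 TPM in hypoxia, 47.4 TPM in ER stress, 125 TPM in oxidative stress and 101 TPM in osmotic stress. Its log2 change was -1.78, and the oxidative and osmotic stress libraries stood on the other side of the control.

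Further falls lay along the same pathway. Mvd, of the mevalonate steps, fell from 28.7 to 8.87 TPM (log2 change -1.59), Mvk from 50.6 to 23.4 TPM (-1.08), Acat2 from 45.5 to 20.6 TPM (-1.10) and Fdft1, squalene synthase, from 50.8 to 24.1 TPM (-1.04). The sterol transporter Stard4 fell from 17.6 to 5.87 TPM (-1.44). Squalene epoxidase Sqle went from 88.3 to 43.8 TPM and lay just within 2-fold, and the factors Srebf1 and Srebf2 had log2 changes of -0.16 and -0.13. For fatty acids, Fasn had a log2 change of -0.74, Acly one of -0.30 and Acaca one of -0.23. The sterol element was found before 1 of 22 members with a promoter window, Hmgcs1, against 1.29% of all genes kept.

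By list median, the fall of sterol genes was nearly as large in glucose depletion. In glucose depletion the list median was -0.68 with 4 members lowered, and the direct glutamine minus glucose difference had a median of -0.10, against -0.05 for all genes. Some members did differ between these libraries, with direct differences of -1.18 for Hmgcs1 and -0.89 for Insig1, while Acat2 had -0.03 and Fdft1 -0.06. Hypoxia had a median of -0.51, whereas oxidative stress had 0.42. Of the 8 lowered genes, Hmgcs1 alone lay below glucose depletion by more than 2-fold.

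**Figure D5:**
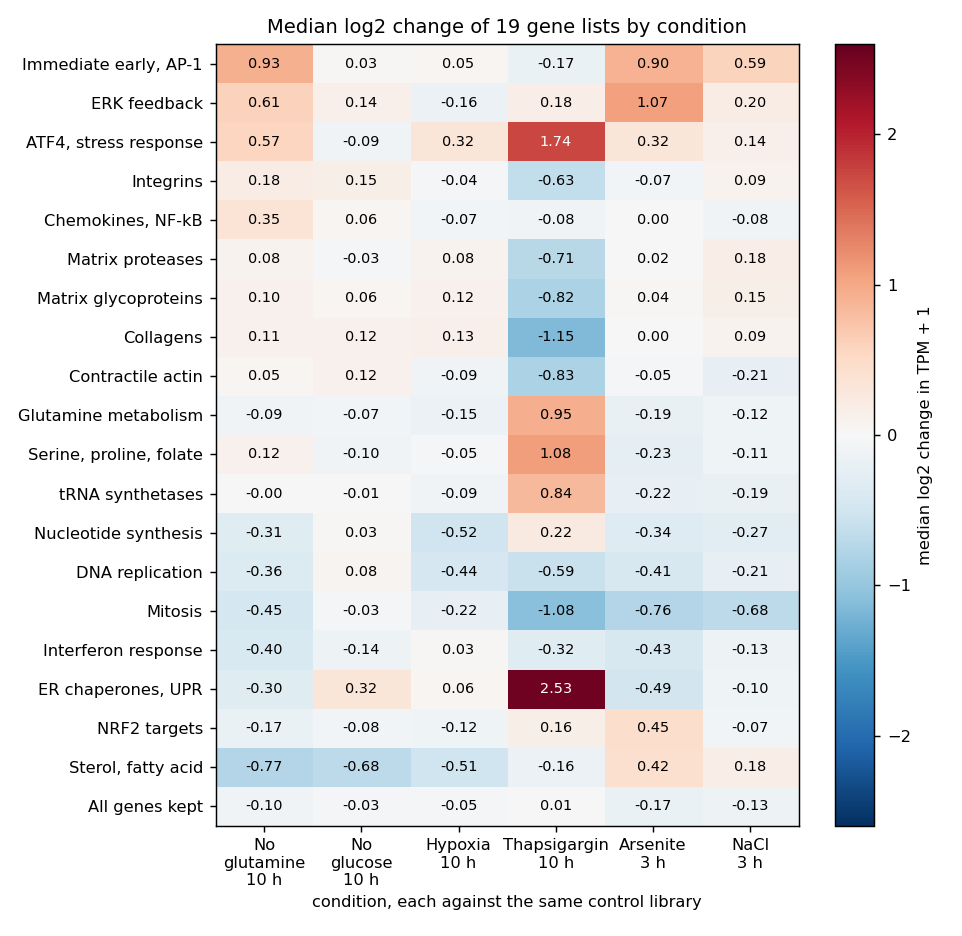
Median log2 change in TPM + 1 of the same 19 gene lists and of all 11465 genes (bottom line) in each of the 6 conditions against the shared control library. The immediate early list has medians of 0.93 without glutamine and 0.90 with arsenite, the ATF4 list is highest with thapsigargin at 1.74, and the sterol list is negative without glutamine, without glucose and in hypoxia.

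Interferon response genes fell in part. Of 18 kept 4 fell and 0 rose (median -0.40), and 5 stood below all 6 other libraries, against 9.98% of all genes. The antiviral genes Ifit3 and Ifit2 fell from 8.83 to 2.24 TPM (log2 change -1.60) and from 13.1 to 4.47 TPM (-1.37), and the factors Irf1 and Stat2 fell from 26.6 to 10.0 TPM (-1.32) and from 16.3 to 6.65 TPM (-1.18). Adding 5 TPM before the log, rather than 1, Ifit3, Ifit2 and Stat2 came to -0.93, -0.94 and -0.87 and were no longer called. Isg15 and Irf7, also interferon targets, had log2 changes of 0.02 and 0.08. The median was -0.43 in oxidative stress and -0.14 in glucose depletion, and in osmotic stress Irf1 stood lower still, at 3.36 TPM.

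Proliferation genes were lower without passing 2-fold. None of 34 DNA replication genes was called, but 30 had log2 changes below 0 and the median was -0.36, and of 32 mitosis genes 30 were below 0 with a median of -0.45, against 61.5% of all genes below 0. The lowest replication values were -0.89 for Cdc6, which loads the replicative helicase, and -0.79 for Mcm2, a helicase subunit, and the lowest mitosis values were -0.94 for Kif20a, a kinesin of cytokinesis, and -0.88 for the spindle gene Nusap1. Mki67, the proliferation marker, had a log2 change of 0.03, and Rrm2, a subunit of ribonucleotide reductase, one of 0.11. The same lists had medians of 0.08 and -0.03 in glucose depletion, and the direct glutamine minus glucose medians were -0.44 and -0.38. Against the control library the medians of the replication and mitosis lists were -0.59 and -1.08 in ER stress, -0.41 and -0.76 in oxidative stress, -0.44 and -0.22 in hypoxia, and -0.21 and -0.68 in osmotic stress, so several of these conditions lay lower than glutamine depletion. Among 18 G1 regulators 1 fell, the CDK inhibitor Cdkn2d from 17.4 to 6.12 TPM (-1.37), and cyclin Ccnd1 and the inhibitor Cdkn1a had log2 changes of -0.23 and -0.05.

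Other stress programmes had few called members. Among 21 ER chaperone and unfolded protein response genes 1 fell, Sdf2l1 from 31.1 to 12.1 TPM (-1.30), the median was -0.30, and the main ER chaperone Hspa5 went from 1165 to 943 TPM (-0.30). In glucose depletion the median of this list was 0.32 and Sdf2l1 stood at 60.8 TPM, and the direct glutamine minus glucose median was -0.60. Among 20 NRF2 targets Txnrd1 rose from 205 to 468 TPM (log2 change 1.19) and Srxn1 from 54.0 to 119 TPM (1.13). Both stood higher in oxidative stress, at 634 and 291 TPM. The list had a median of -0.17, and 14 members were below 0, against 61.5% of all genes tested. Hmox1 had a log2 change of -0.01 and Nqo1 one of -0.41. No heat shock gene of 18 was called, with Hspa1a at -0.91.

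Of 24 p53 target genes only the growth arrest gene Gadd45a was called, rising from 30.3 to 88.5 TPM (log2 change 1.52). It stood at 286 TPM in ER stress and 85.5 TPM in oxidative stress. The list had a median of -0.19, 18 members were below 0, and Mdm2 was at 0.19. Among 23 glycolysis genes hexokinase Hk2 rose from 16.2 to 36.9 TPM (1.14) and the enolase Eno2 fell from 30.4 to 13.0 TPM (-1.17). Hk2 stood at 56.1 TPM in hypoxia and 48.9 TPM in ER stress, and the direct glutamine minus glucose difference of Eno2 was -0.07. The HIF target Car9 fell from 6.38 to 2.13 TPM (-1.24). Txnip, which follows glucose through MondoA, went from 70.7 to 68.7 TPM (-0.04), but stood at 16.1 TPM in glucose depletion and 7.22 TPM in osmotic stress. No nuclear respiratory chain gene of 31 was called (median -0.15), and the 13 mitochondrially encoded genes had a median of 0.32 with none called. Of 33 autophagy and lysosome genes none was called, with Tfe3, a regulator of lysosomal genes, at 0.78.

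Remaining groups held up to 3 called genes each. Hosts of small nucleolar RNAs were listed together with other long noncoding transcripts such as Malat1 and Neat1, and 3 of these 16 rose. The host Snhg1 rose from 113 to 252 TPM (log2 change 1.15) and Snhg12 from 73.7 to 164 TPM (1.14). Snhg5 rose from 45.7 to 93.8 TPM (1.02). The joint list had a median of 0.18, against -0.24 in glucose depletion, and a direct glutamine minus glucose median of 0.59. In ER stress its median was 0.80 and 7 of 16 rose, against 7.28% of all genes tested. Snhg1, Snhg12 and Snhg5 stood at 588, 548 and 254 TPM there. Smox, a polyamine oxidase, rose from 13.8 to 35.0 TPM (1.28) and was the only one of 11 polyamine genes called. Arntl, the clock factor BMAL1, rose from 16.5 to 35.3 TPM (1.05), and the clock repressor Nr1d1 lay just within 2-fold at 0.99. The FoxO and mTORC1 list had Klf15 lowered from 1.40 to 0.0778 TPM (-1.15), Depdc5, of the GATOR1 restraint on mTORC1, lowered from 15.7 to 7.35 TPM, and Gadd45a raised, of 19. Klf15 was kept through its 15.2 TPM in ER stress, and with 5 TPM added before the log its change was -0.33. Depdc5 was no longer called after centring on all genes (-0.90), without mitochondrially encoded genes (-0.99) or with 5 TPM added (-0.75). Pparg, the adipogenic receptor, fell from 47.0 to 21.2 TPM (-1.12).

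The 15 largest rises also held Arc (from 11.8 to 86.6 TPM), a synaptic gene and immediate early target, Ch25h (from 4.66 to 30.1 TPM), which makes 25-hydroxycholesterol, Sema7a (from 7.61 to 46.6 TPM), Aldh1a3 (from 8.69 to 50.3 TPM), which makes retinoic acid, and the desmosomal gene Pkp1 (from 1.72 to 13.2 TPM). Their log2 changes ran from 2.38 to 2.78, and each stood above all 6 other libraries. In glucose depletion Pkp1 and Sema7a also rose, by 1.62 and 1.41. Aldh1a3, Arc and Ch25h had log2 changes of 0.93, 0.40 and -0.00 there. The other rises were 1700047I17Rik2, AC245272.5, AC139186.1, n-TSaga9 and AC124457.1. The last 4 were listed at 0 in the control library, and AC139186.1, n-TSaga9 and AC124457.1, annotated as microRNA genes, were higher in glucose depletion than in glutamine depletion.

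Of the 15 largest falls the first 6 were AC154636.1, Rny1, AC100406.2, AC152063.2, Hist2h2aa1 and AL845457.1, and all but AL845457.1 were listed at 0 in at least 1 library. Insig1 and Hmgcs1 are described above, and the rest of those that followed and stood above 10 TPM in the control library were Ahrr, the repressor of the aryl hydrocarbon receptor, from 26.2 to 4.42 TPM (log2 change -2.33), the S100 protein S100a7a from 17.3 to 3.54 TPM (-2.01), Dpf1 from 14.5 to 3.66 TPM (-1.73), the lysosomal cystine exporter Ctns from 25.9 to 7.71 TPM (-1.63) and Plin4, which coats lipid droplets, from 14.9 to 4.16 TPM (-1.63). Ahrr, Dpf1 and Ctns stood below all 6 other libraries. AC149294.2 and Serpina3h, each under 5 TPM in the control library, complete the list.

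Sequence matches over all raised and lowered genes were few. AP-1 sites were found before 18 of the 147 raised genes with a promoter window (12.2%) and 9 of 158 lowered genes (5.70%), against 5.22% of all genes kept. ATF4 composite elements were found before 9 raised genes (6.12%) and 3 lowered genes (1.90%). Sterol elements were found before 1 raised gene (0.68%) and 6 lowered genes (3.80%), against 1.29% of all genes kept. A match is a description of the letters and not a bound site. Shares within the gene lists above describe lists drawn up by pathway, and test nothing in these data.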

How the data were processed

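RNA-seq of MEFs was analysed from 7 libraries, 1 per condition, grouped by their labels. The authors quantified stranded paired-end reads with Kallisto (0.43.1 per the processing notes) at default settings against all Ensembl release 90 cDNA transcripts of GRCm38, and deposited gene-level TPM, the sum of the TPM of a gene's transcripts. Read counts are not part of these values, so depth is unknown and counting error has no interval.

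Of 49382 rows, 22450 were left out by symbol. Of 170 symbols on several rows the one with the highest mean was kept. The change was log2(TPM + 1) in glutamine depletion minus control, called beyond 2-fold, the study's own rule. Gene lists were described by their counts and medians. Growth factors were left out by a list of 162 symbols written by family. The members and lists were chosen with earlier results of these data known.

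Named genes were Atf3, Chac1, the 15 largest changes each way, up to 6 called members each way in each list, up to 3 further members where fewer than 3 were called, and some reference genes. Other members were named after their values were seen, and some genes are not reported here. Gene types and positions came from GENCODE M21, with 49 of the 11465 genes unmatched. Alternatives covered the pseudocount, filters, threshold, centring, mitochondrial genes, symbols, growth factors and the reference library. Scripts, checked on simulated data, ran in Python 3.11.15 with pandas 2.3.3, numpy 2.4.6 and, for the plots, matplotlib 3.10.9.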

Additional observations from a re-analysis of the deposited data

How the results depend on the processing

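Counts of raised and lowered genes moved with the settings. They were 276 and 365 with a pseudocount of 0.1 TPM, 115 and 37 with 5 TPM, 143 and 86 at a mean of at least 10 TPM, 694 and 1091 at 1.5-fold, 58 and 20 at 3-fold, 394 and 412 with no symbols left out, and 169 and 131 with glucose depletion as reference. Setting the median of all genes to 0 gave 271 and 132. The other alternatives, protein-coding genes only among them (189 and 194, chosen after seeing the data), stayed within 1.5 times of both counts. With glucose depletion as reference the sterol median was -0.10, and without a filter the muscle marker median was 0.00, as against -0.60 from Des alone. Against glucose depletion the differences of AC139186.1 (-0.56), n-TSaga9 (-0.57), AC124457.1 (-0.57) and AL845457.1 (0.61) turned direction, those of Hist2h2aa1 and AC100406.2 were 0.00, and 31 of the 182 named genes kept their direction but were no longer beyond 2-fold, Dusp6, Insig1 and Slc7a1 among them. A pseudocount of 5 TPM ended 19 calls, those of the raised genes Fosb (0.68), Itga2 (0.85), Nuak2 (0.89), Arntl (0.91), Snhg5 (0.96), Hk2 (0.98), Slc7a1 (0.99) and AC124457.1 (1.00) and of the lowered genes Klf15 (-0.33), Car9 (-0.67), Serpina3h (-0.69), Depdc5 (-0.75), AC149294.2 (-0.78), Stat2 (-0.87), Ifit3 (-0.93), Ifit2 (-0.94), Acat2 (-0.98), Eno2 (-0.98) and Pparg (-0.99). The causes were not tested. No paired analysis was possible because each condition has 1 library, and for the same reason no library could be left out. Depth is unknown, so precision at low TPM cannot be given.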

Other observations

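The genes and gene groups here were chosen after the values of their members were seen, and their counts support nothing beyond these libraries. Gjb2, a connexin that forms gap junction channels, was at 88.2 TPM in the control library, 358 TPM in glutamine depletion, 136 TPM in glucose depletion, 85.7 TPM in hypoxia, 217 TPM in ER stress, 142 TPM in oxidative stress and 25.4 TPM in osmotic stress (log2 change 2.01). It stood above all 6 other libraries. Gja1, the main connexin of fibroblasts, had a log2 change of -0.14.

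Targets of the aryl hydrocarbon receptor, which senses small aromatic compounds, fell in 3 of 7 kept, Ahrr, Cyp1b1 and Cyp1a1. Cyp1b1, a cytochrome P450, was at 217 TPM in the control library, 90.2 TPM in glutamine depletion, 233 TPM in glucose depletion, 239 TPM in hypoxia, 131 TPM in ER stress, 142 TPM in oxidative stress and 96.2 TPM in osmotic stress (log2 change -1.25). Ahrr, described above, had a log2 change of -2.33, and Cyp1a1 went from 1.21 to 0.0441 TPM (-1.08). Both levels of Cyp1a1 lie under the limit of 2 TPM, so it was kept through other libraries. Nqo1, which this receptor and NRF2 share, had one of -0.41.

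In retinoid metabolism Aldh1a3 (2.40) and Cyp26b1, which degrades retinoic acid, rose, the latter from 4.12 to 17.3 TPM (1.84), of 5 genes kept. All 10 Fanconi anaemia genes, of DNA crosslink repair, had log2 changes below 0, against 61.5% of all genes tested. Their median was -0.30, against -0.10 for all genes, and Fancg fell from 11.1 to 3.76 TPM (-1.35). Of 14 intraflagellar transport genes, which build cilia, 12 were below 0 (median -0.24) and Ift81 fell from 20.7 to 7.47 TPM (-1.36). Of 301 zinc finger genes named Zfp, 1 rose and 4 fell. Of 83 ribosomal protein genes 1 fell, Rpl10 from 506 to 227 TPM (-1.15), and it stood at 258 TPM in glucose depletion.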
